A study of Mus musculus with 4 samples.

Results

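The citric acid cycle enzymes described here are the products of 9 nuclear genes, Cs, Idh2, Idh3a, Idh3b, Idh3g, Ogdh, Sucla2, Fh1 and Mdh2, taken by symbol from the 21885 genes of the count tables, and all 9 were found, each under 1 identifier. Their transcripts were counted on Visium slides, on which polyadenylated RNA from a frozen tissue section is captured on a grid of barcoded spots wide enough to take in more than 1 cell. Counts are of unique molecular identifiers (UMIs), which mark single captured molecules. Hearts came from mice of 8 to 12 weeks that all carried the genotype Collagen1a1-GFP+, a fluorescent reporter for a collagen gene of fibroblasts, controls included. There were 4 sections: 1 from an untreated control labelled female, 1 taken 3 days after myocardial infarction (3 dpi) and labelled female, and 2 taken 5 days after infarction (5 dpi), of which one is labelled female, called 5 dpi-F here, and the other male, called 5 dpi-M. Infarction was by permanent ligation of the left anterior descending coronary artery, and the labels name no sham-operated group.

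The cycle runs in the mitochondrial matrix. Citrate synthase (Cs) joins acetyl-CoA to oxaloacetate, isocitrate dehydrogenases and the oxoglutarate dehydrogenase complex release carbon dioxide, and succinyl-CoA synthetase, succinate dehydrogenase, fumarase and malate dehydrogenase regenerate oxaloacetate. The reduced cofactors that the cycle makes feed the respiratory chain. Heart muscle, which beats on oxidative metabolism, is among the tissues richest in mitochondria, and most of its mitochondria lie in cardiomyocytes.

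After filters on UMIs, genes and mitochondrially encoded UMIs, 1146 to 1741 spots per section remained, with 6250183 to 11010109 UMIs. Mitochondrially encoded genes took 40.1% of the UMIs in the control, 21.4% at 3 dpi, 13.3% in 5 dpi-F and 14.3% in 5 dpi-M, so values are given per 1000000 UMIs of all other genes (CPM), unless another scale is named. The 12 cardiomyocyte genes that served as a scale and as a measure of muscle content (Myh6, Tnnt2, Tnni3, Actc1, Myl2, Myl3, Pln, Mb, Ckm, Tcap, Ryr2 and Ttn) were detected in every section, and held 10.1%, 4.53%, 1.98% and 3.71% of non-mitochondrial UMIs in the same order. Transcripts of 4 Y-linked genes numbered 704 in 5 dpi-F and 1 in 5 dpi-M, so these sections go against their sex labels, and F and M stand for the labels alone. In a spot, fewer cardiomyocytes and less RNA per cardiomyocyte cannot be told apart.

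The RefSeq promoter table for GRCm38.p6 matched 8 of the 9 genes, and the 250 bases upstream of the start are shown for 3 of them. These are Cs, the enzyme of entry, Idh2 and Sucla2. In the fit of poor against rich spots over the 3 infarcted sections below, Cs fell least and Idh2 most. Capitals mark matches, on either strand, to the CCAAT box (CCAAT) or to the motif of NRF1, a regulator of nuclear genes for mitochondrial proteins (GCGCA and GCGC with any 1 base between them). The windows are chr10:128337477-128337726 (+ strand) for Cs, chr7:80115351-80115600 (- strand) for Idh2 and chr14:73552536-73552785 (+ strand) for Sucla2.
Cs: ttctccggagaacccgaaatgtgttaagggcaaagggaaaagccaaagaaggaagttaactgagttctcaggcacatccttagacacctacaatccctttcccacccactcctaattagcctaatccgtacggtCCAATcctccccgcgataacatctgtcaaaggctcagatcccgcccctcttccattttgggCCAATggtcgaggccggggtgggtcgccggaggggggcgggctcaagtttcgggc
Idh2: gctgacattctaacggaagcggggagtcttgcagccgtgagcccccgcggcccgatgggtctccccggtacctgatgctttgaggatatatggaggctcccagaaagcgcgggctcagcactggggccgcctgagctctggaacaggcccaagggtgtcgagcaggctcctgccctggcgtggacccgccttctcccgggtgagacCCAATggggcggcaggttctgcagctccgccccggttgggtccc
Sucla2: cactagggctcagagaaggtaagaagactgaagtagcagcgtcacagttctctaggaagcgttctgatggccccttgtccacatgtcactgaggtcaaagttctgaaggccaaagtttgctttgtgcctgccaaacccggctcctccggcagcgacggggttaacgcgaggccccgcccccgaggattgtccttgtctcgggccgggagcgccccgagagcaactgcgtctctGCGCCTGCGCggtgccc
CCAAT was present for 5 of the 8 matched genes, in 1 window each for Cs, Fh1, Idh2 and Idh3b and in 4 of the 6 listed for Ogdh, of which 3 overlap and share their sites, while 33.8% of all 32851 promoter windows hold it. The NRF1 motif was present in 1 of the 13 member windows, that of Sucla2, against 3.74% of all windows. The half-site AAGGTCA, of the estrogen-related receptors, was found in 0 of the 13 windows and in 4.08% of all. These matches are letters in a window, and neither site use nor factor binding was measured.

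Across whole sections, all 9 enzymes were at a lower level after infarction. The control held 598 CPM of Cs, the 3 dpi section 335, 5 dpi-F 189 and 5 dpi-M 272. Idh2, the mitochondrial NADP-dependent isocitrate dehydrogenase, followed the same order of sections at 1858, 579, 299 and 562 CPM. Mdh2, the mitochondrial malate dehydrogenase, was at 1547, 782, 445 and 623 CPM. The control was above all 3 infarcted sections for each of these 3 genes, and 5 dpi-F was lowest for all 9.

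Idh3a, Idh3b and Idh3g, the catalytic and the 2 regulatory subunits of the NAD-dependent isocitrate dehydrogenase, were at 507, 885 and 487 CPM in the control and between 121 and 345 CPM in the infarcted sections. Ogdh, the decarboxylating subunit of the oxoglutarate dehydrogenase complex, was at 1312 CPM in the control and at 566, 361 and 539 CPM after infarction. Sucla2, the ADP-forming beta subunit of succinyl-CoA synthetase, was at 475 CPM against 102 to 177. Fh1, fumarase, was at 499 CPM against 118 to 226. The control exceeded the nearest infarcted section by 1.78-fold for Cs to 3.21-fold for Idh2, and 9 of 9 members were above it by 1.5-fold or more, against a background of 11.9% of the 6924 genes at 20 CPM or more in any section (26.0% had the control above all 3 by any margin). Control and 3 dpi are 1 section each, so this comparison has no test, and the sections differ in muscle content as given above. With CPM over all UMIs, mitochondrially encoded ones included, the 1.5-fold count was 7, without Cs and Idh3g.

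**Figure D1:**
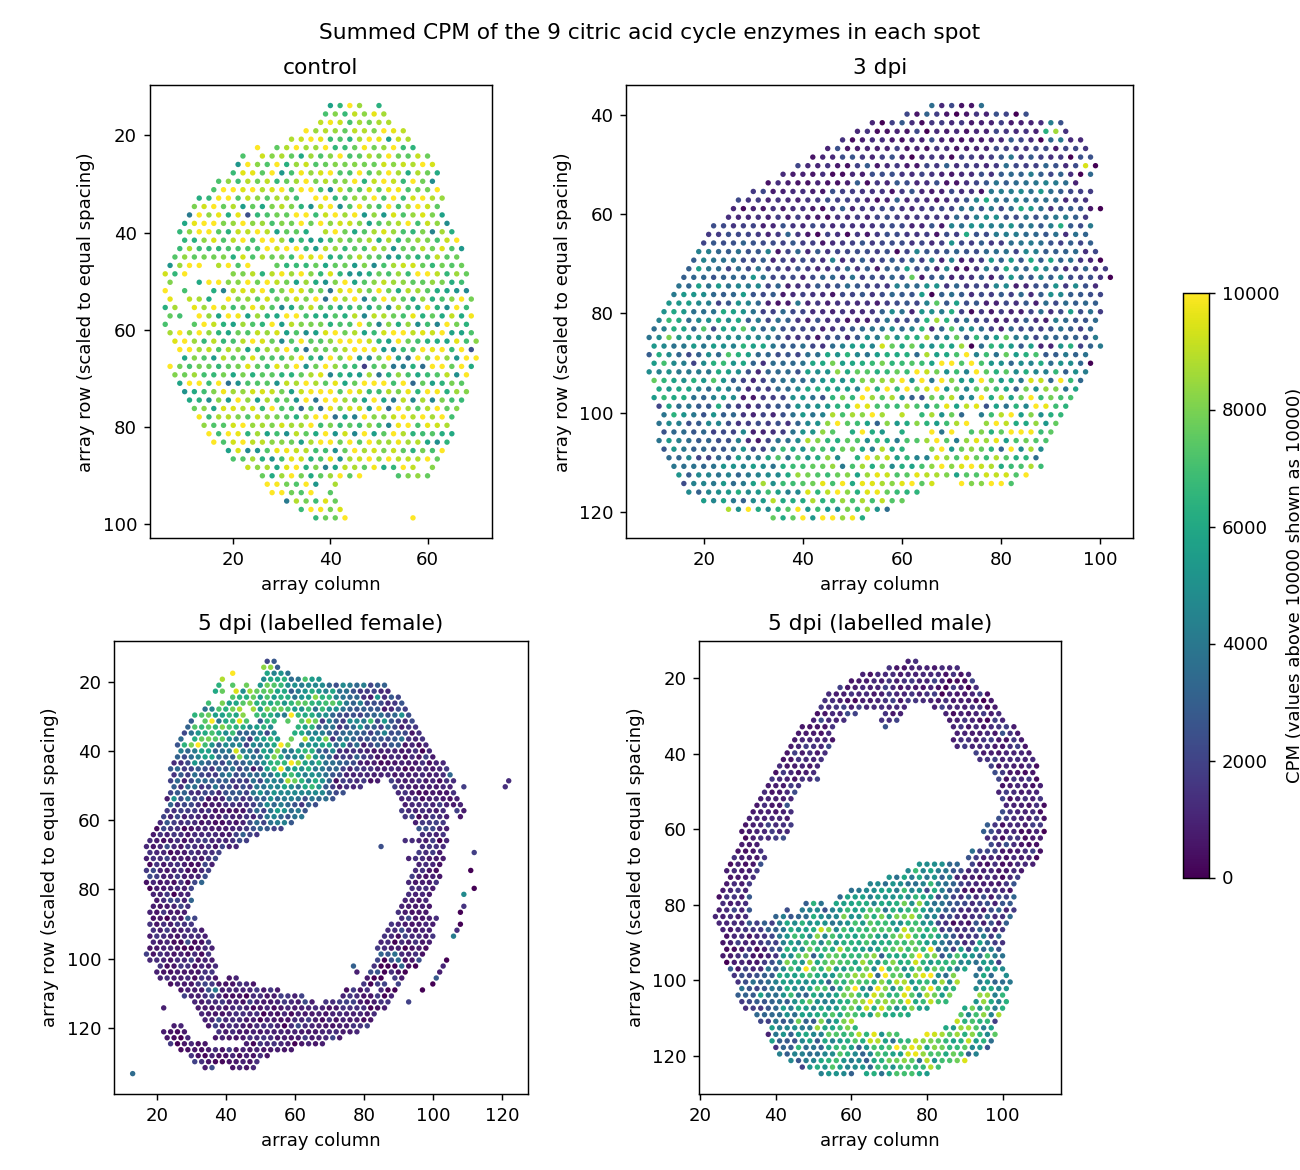
Summed CPM of the 9 enzymes in every kept spot of the 4 sections, drawn at the array position of the spot; colour runs from 0 to 10000 CPM. The control is high throughout (median 8062 CPM per spot), whereas each infarcted section holds a high and a low region (medians 3432, 1439 and 3120 CPM at 3 dpi, 5 dpi-F and 5 dpi-M).

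The map of summed CPM shows where the transcripts lay. The 10th and 90th percentiles over spots were 5770 and 10561 CPM in the control, 1086 and 7732 at 3 dpi, 557 and 5763 in 5 dpi-F and 721 and 7385 in 5 dpi-M. The 90th percentile lay within the control's span at 3 dpi and in 5 dpi-M and just under it in 5 dpi-F, and the 10th percentile of all 3 lay below it. At least 1 UMI of the 9 genes was found in 1146 of 1146 control spots and in 1726 of 1741, 1501 of 1535 and 1416 of 1423 spots of the other sections.

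Spots were grouped by muscle content to ask how the enzymes follow it. The share of the 12 cardiomyocyte genes in a spot was divided by the 90th percentile of its section, and spots were classed as rich (0.75 or above), upper middle (0.5 to 0.75), lower middle (0.25 to 0.5) or poor (under 0.25). The 3 infarcted sections held 286 to 509 rich spots, 147 to 339 upper middle, 103 to 389 lower middle and 516 to 952 poor spots; 1099 of the 1146 control spots were rich. UMIs were summed per class and section, and the classes were compared with edgeR's quasi-likelihood test with the section as a block and Benjamini-Hochberg adjustment over 10521 genes.

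All 9 enzymes fell with muscle content, and each lower class differed from rich spots by the test. Idh2 was at 1391 CPM in rich spots at 3 dpi, then 704, 379 and 197 in upper middle, lower middle and poor spots. It was at 1081, 482, 253 and 151 CPM in 5 dpi-F, and at 1291, 743, 292 and 160 CPM in 5 dpi-M. No poor value reached any lower middle value, and no lower middle value reached any upper middle one.

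Cs gave the smallest change in the fit over the 3 sections, although Idh3g fell slightly less than Cs from rich to poor in each 5 dpi section. From rich to poor, Cs was at 543, 428, 323 and 186 CPM at 3 dpi and at 496, 288, 257 and 116 CPM in 5 dpi-F. In 5 dpi-M it was at 500, 398, 232 and 120 CPM. Mdh2 ran from 1503, 1283 and 1254 CPM in rich spots of the 3 sections to 359, 242 and 231 CPM in poor ones. The rich and poor classes of these genes were far apart in each section.

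In poor against rich spots, 9 of 9 members fell, against 27.1% of all genes tested that were lower and 30.8% that were higher. The log2 difference ran from −2.32 (SE 0.14) for Cs to −3.31 (SE 0.14) for Idh2, 5.01-fold and 9.91-fold lower, with edgeR adjusted p of 2.00e-11 or less. Between them were Idh3g (−2.50), Fh1 (−2.71), Mdh2 (−2.72), Idh3b (−2.83), Idh3a (−2.90), Ogdh (−2.93) and Sucla2 (−2.95). Lower middle spots were below rich ones for 9 of 9 (background 15.5% lower), from −1.20 (SE 0.14) for Cs to −2.30 (SE 0.13) for Idh2, with edgeR adjusted p of 1.69e-06 or less. Upper middle spots were below rich ones for 9 of 9 as well (background 6.11% lower), from −0.66 (SE 0.14, edgeR adjusted p = 0.00318) for Cs to −1.16 (SE 0.13, edgeR adjusted p = 1.28e-05) for Idh2. The upper middle calls were the least stable: 1 of 9 remained when classes were quartiles within each section, 4 without the section block and 6 without 5 dpi-F. These fits used TMM scaling, which moved the log2 differences by −0.42, −0.27 and −0.19 in the 3 comparisons relative to plain CPM.

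**Figure D2:**
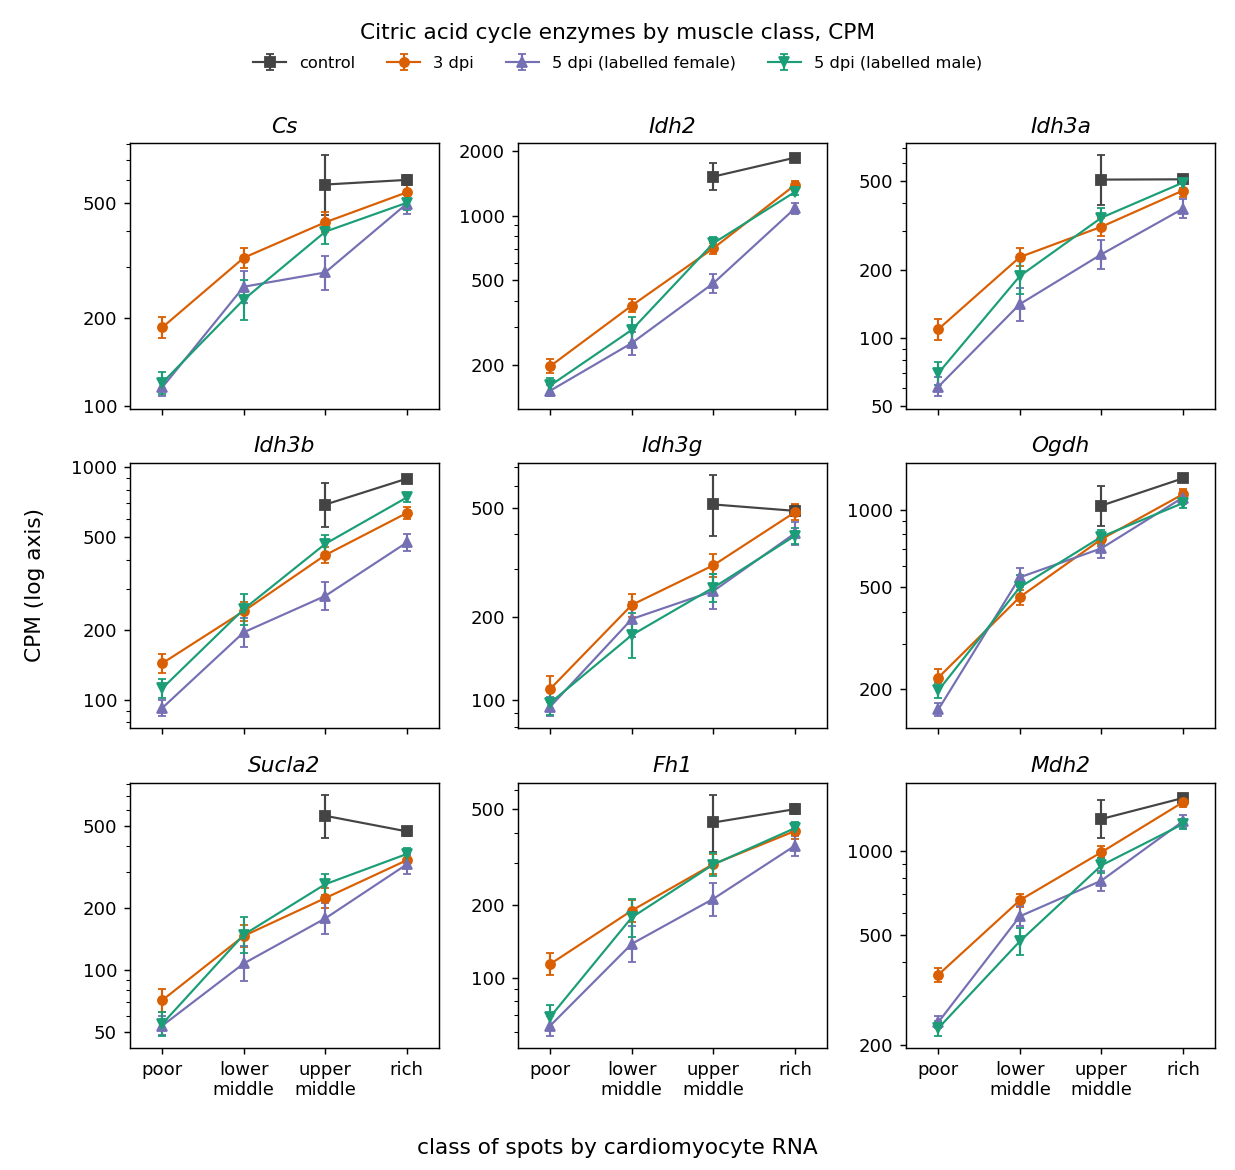
CPM of each enzyme (log axis) in poor, lower middle, upper middle and rich spots, 1 line per section, with exact Poisson 95% intervals that cover counting error only; classes under 20 spots are left out. Every line of the infarcted sections rises from poor to rich, and the control's rich value lies above the 3 others for all 9 genes.

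Markers of other cell types moved across the same classes, in both directions. From rich to poor spots the summed level of 8 macrophage markers went from 1223–1699 to 11910–14349 CPM, with 8 of 8 higher by the same test, and that of 7 fibroblast markers from 2806–4983 to 14218–25571 CPM, with 6 of 7 higher; no marker of either list was at 0 in any class. Endothelial markers fell with the enzymes (5 of 6 lower), as did erythroid markers (4 of 4), and mural markers were split (2 higher and 2 lower of 5). Mitochondrially encoded UMIs made up 28.7 to 40.8% of all UMIs in rich spots and 2.07 to 5.36% in poor ones. Their part in the enzyme differences was not tested.

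Scaled to muscle RNA, the picture split. The same UMI sums were set against the summed UMIs of the 12 cardiomyocyte genes (cardiomyocyte UMIs), which asks whether an enzyme's transcripts fell by more or by less than those of the muscle genes. On this scale none of the 9 enzymes passed the test in upper middle spots, and in lower middle spots 1 did, Idh2, which was lower. In poor spots, which were chosen for few cardiomyocyte UMIs, all 9 were higher per cardiomyocyte UMI, as were 98.3% of all genes tested.

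Mdh2 held 15.3, 15.1, 17.3 and 33.4 UMIs per 1000 cardiomyocyte UMIs in rich, upper middle, lower middle and poor spots at 3 dpi. It held 15.1, 15.5, 18.9 and 67.5 in 5 dpi-F and 14.6, 15.02, 14.0 and 46.1 in 5 dpi-M. Its rich value in the control was 15.3, so the 4 sections differed little in their rich spots. Ogdh was close between rich and upper middle spots, and slightly higher in the latter at 5 dpi, at 11.7 and 11.7, 13.1 and 13.9, and 12.3 and 13.2 in the 3 infarcted sections, and at 13.0 in the rich spots of the control.

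Idh2 per 1000 cardiomyocyte UMIs was 14.1, 10.7, 9.83 and 18.3 from rich to poor spots at 3 dpi. It was 12.8, 9.49, 8.17 and 42.1 in 5 dpi-F and 15.03, 12.5, 8.62 and 32.0 in 5 dpi-M. In each infarcted section it was lower in the middle classes than in rich spots and highest in poor ones. The control's rich spots held 18.3 (exact Poisson 95% interval 17.9 to 18.8), above the 12.8 to 15.03 of the infarcted sections.

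In poor against rich spots 9 of 9 members were higher per cardiomyocyte UMI, from 1.12 (SE 0.31, edgeR adjusted p = 0.000328) for Idh2 to 2.07 (SE 0.32) for Cs on the log2 scale. Against that background of 98.3% the count says little of the enzymes, and the sizes depended on the class limits and the scale: they were 3.09 to 3.87 with quartile classes and 1.83 to 2.78 with Pln, Mb, Ckm and Ryr2 as the scale. The Idh2 call was lost without 5 dpi-F (0.76, edgeR adjusted p = 0.0717). The median of the members was 1.57, against 4.49 over all genes and −0.68 over the 12 cardiomyocyte genes themselves. In lower middle against rich spots 1 of 9 was called, Idh2, at −0.65 (SE 0.31, edgeR adjusted p = 0.0405), and 0.39% of all genes were lower, while 89.1% were higher. The 8 others lay between −0.05 (Idh3b) and 0.46 (Cs) with SE from 0.30 to 0.31, which leaves room for differences of that size in either direction. In upper middle against rich spots 0 of 9 passed the edgeR test, 0 at an unadjusted p under 0.05, against 37.6% of all genes higher and 0.105% lower, with Idh2 lowest at −0.36 (SE 0.30, edgeR adjusted p = 0.302).

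The scale genes themselves did not move as one: in lower middle against rich spots the 12 ran from −0.99 (Ckm, muscle creatine kinase) to 0.95 (Actc1, cardiac actin) around a median of −0.38. The Idh2 difference lies within that range, and its call depended on the settings. It held without the 3 dpi section (−0.73, edgeR adjusted p = 0.000901) and with the 8 sarcomere genes as the scale (−0.78, edgeR adjusted p = 0.0147), and was lost without either 5 dpi section (−0.65 and −0.57, edgeR adjusted p = 0.137 and 0.288), with Pln, Mb, Ckm and Ryr2 as the scale (−0.17, edgeR adjusted p = 0.589) and under 3 other settings, 1 of which turned its direction (quartile classes, log2 difference 0.28, edgeR adjusted p = 0.758).

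**Figure D3:**
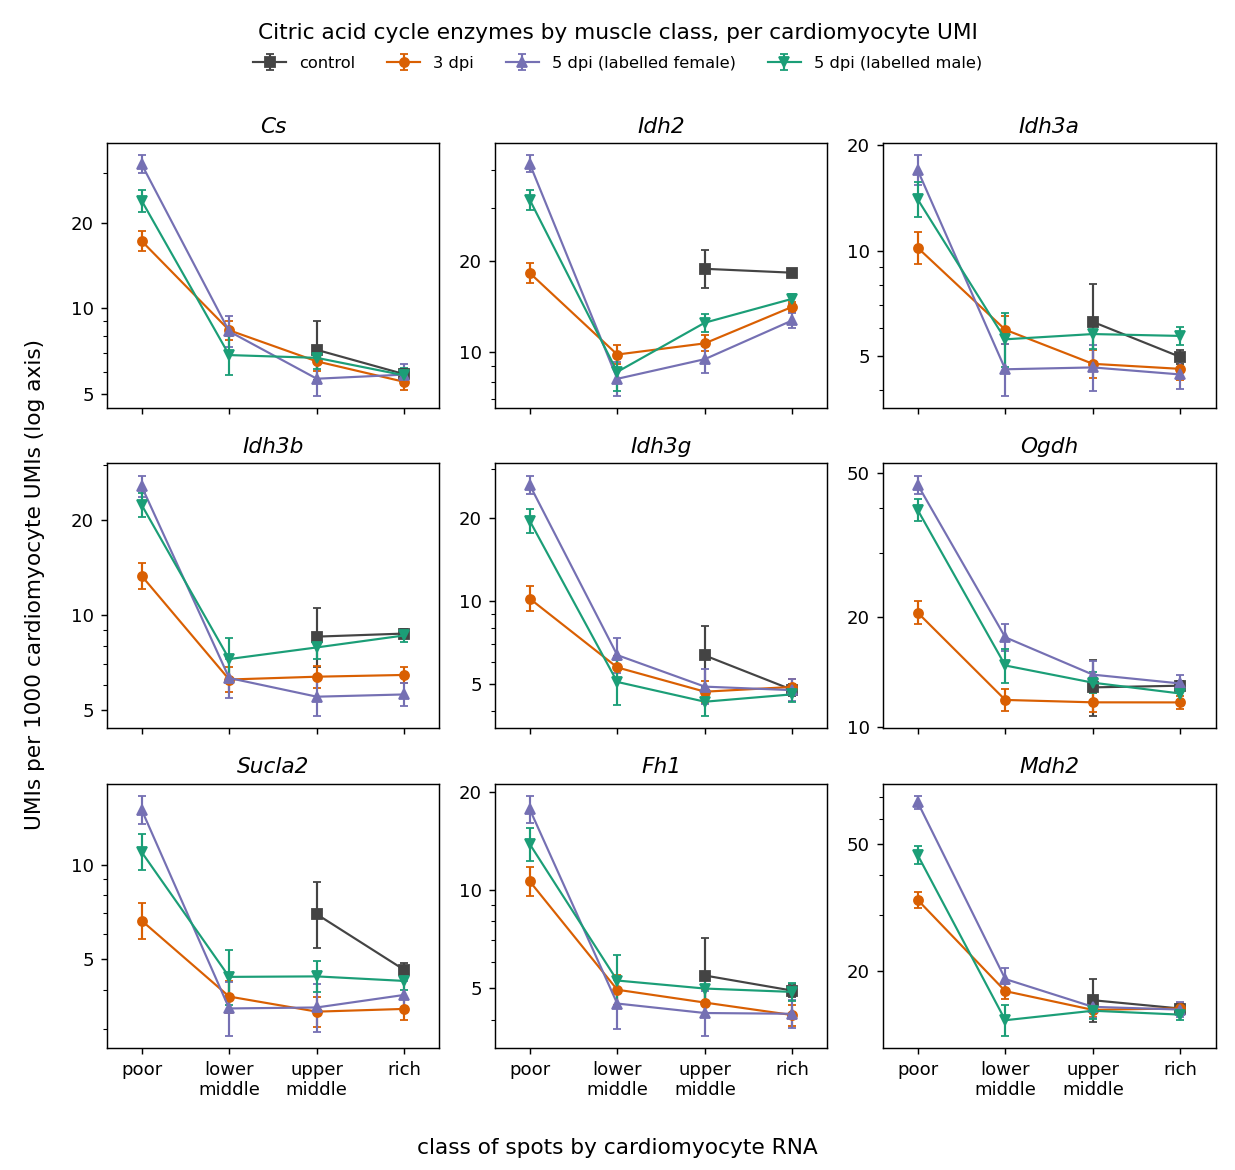
UMIs of each enzyme per 1000 cardiomyocyte UMIs (log axis) by class and section, with exact Poisson 95% intervals that cover counting error only; classes under 20 spots are left out. All panels rise in the poor class; Idh2 dips in the middle classes and its control value in rich spots (18.3) lies above those of the infarcted sections (12.8 to 15.03).

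Setting each enzyme against the sum of all 9 needs no outside scale. Idh2 made up 20.2% of the UMIs of the 9 genes in rich spots at 3 dpi, 15.8% in upper middle, 13.3% in lower middle and 13.0% in poor spots. In 5 dpi-F the shares were 18.3%, 14.1%, 10.5% and 14.5%, and in 5 dpi-M 19.8%, 16.7%, 12.0% and 14.4%. In the infarcted sections all 3 rich values were above every middle or poor value, and the control's rich spots, at 22.8% (exact binomial 95% interval 22.3 to 23.3), were above all of them.

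From rich to lower middle spots the Idh2 share changed by −7.52 ± 0.55 percentage points (SD, n = 3 sections), lower in 3 of 3. Over 3 sections an exact sign-flip test cannot give a p below 0.25, so no test is given. Since the shares sum to a constant, the other 8 together gain what Idh2 loses, and their changes are no separate result. That gain lay mostly with Cs (2.51 ± 0.83 points), Ogdh (2.43 ± 2.66), Mdh2 (1.42 ± 1.08) and Idh3g (1.05 ± 0.26), of which Cs, Mdh2 and Idh3g were higher in 3 of 3 sections and Ogdh in 2; Idh3b was at −0.67 ± 0.66 points.

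**Figure D4:**
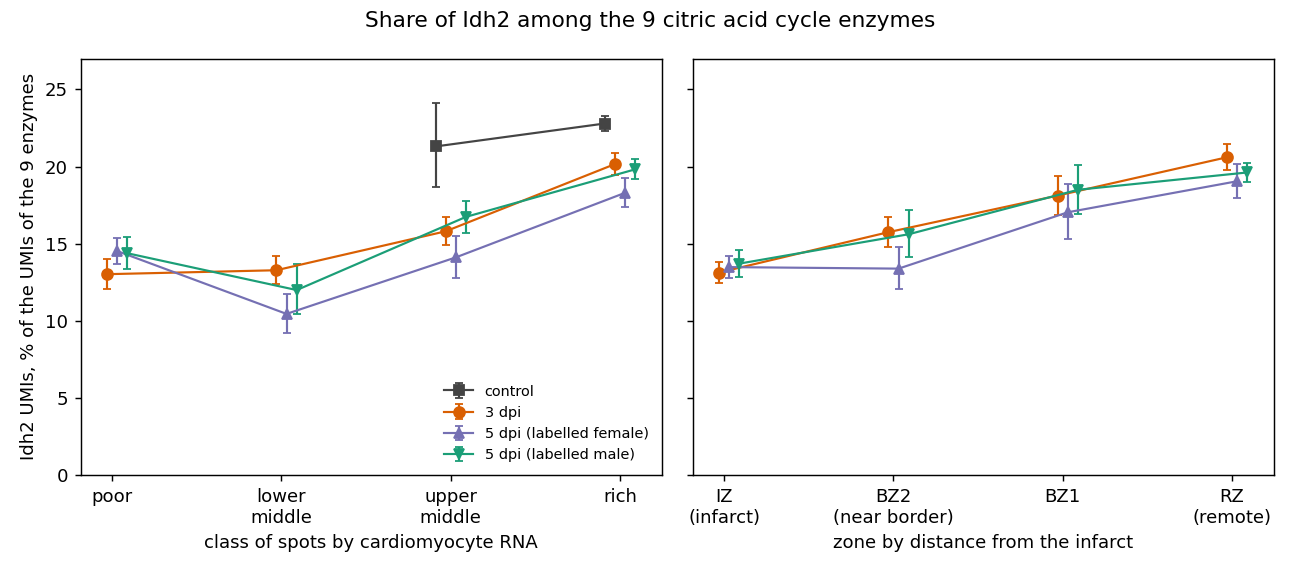
Idh2 UMIs as a percentage of the UMIs of the 9 enzymes, by muscle class (left) and by zone (right), 1 line per section, with exact binomial 95% intervals that cover counting error only. In the infarcted sections the share lies between 18.3% and 20.2% in rich spots and between 10.5% and 13.3% in lower middle ones.

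A spot of middling muscle content could be a mixture of rich and poor tissue, so the middle classes were also set against the straight line between the poor and rich class of the same section, at the same cardiomyocyte share. Idh2 in lower middle spots was at 0.573 ± 0.075 of the line (SD, n = 3), and in upper middle spots at 0.749 ± 0.056. Idh3b was at 0.806 ± 0.077 and 0.898 ± 0.026. The other 7 lay between 0.857 (Sucla2) and 1.01 (Cs) in lower middle spots and between 0.890 (Idh3g) and 0.986 (Cs) in upper middle ones. Below the line in 3 of 3 sections were 6 of 9 members in lower middle spots and 7 of 9 in upper middle ones, against 36.6% and 29.8% of 2882 genes. These shares are for any margin, and how many genes lay as far below the line as Idh2 was not counted. The 8 markers of stressed border muscle (Nppa, Nppb, Ankrd1, Xirp2, Acta1, Flnc, Clu and Des) summed to 37713 to 57307 CPM in lower middle spots and 11369 to 22286 CPM in rich ones. Of these 8 markers 4 were called higher, against 1554 of the 10521 genes tested. Their part in the Idh2 values was not tested.

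The position of the muscle was compared as well. The infarct zone (IZ) was taken as patches of 10 or more spots with under 0.5 times the 90th percentile of the cardiomyocyte share, and spots above that limit were sorted by distance into the near border (BZ2, within 2 steps of the IZ), BZ1 (3 to 4 steps) and the remote zone (RZ). Near-border spots numbered 301, 136 and 104 in the 3 infarcted sections, and remote spots 380, 200 and 533; 23, 41 and 10 low spots in smaller patches entered no zone. Of these zones, BZ2 and RZ both hold muscle by definition.

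Near the border all 9 enzymes were lower in CPM than in the remote zone. Idh2 was at 709 CPM in BZ2 against 1445 in RZ at 3 dpi, 491 against 1150 in 5 dpi-F and 677 against 1214 in 5 dpi-M. Its log2 difference was −1.19 (SE 0.13, edgeR adjusted p = 1.04e-05). The 8 others fell by less, from −0.61 for Ogdh and Cs (edgeR adjusted p = 0.00370 and 0.0140) to −0.81 for Idh3b (edgeR adjusted p = 0.000672). The count of 9 of 9 compares with 4.8% of 9444 genes that were lower, and 398 of the 9444 were higher. The cardiomyocyte share went from 9.81%, 8.69% and 8.18% in RZ to 6.73%, 5.43% and 5.99% in BZ2, with 7 of 12 cardiomyocyte genes lower, and summed fibroblast markers from 3230, 4372 and 3156 CPM to 7505, 11443 and 8804 CPM, with 5 of 7 higher. Macrophage markers were higher for 5 of 8, erythroid markers lower for 4 of 4, and the markers of stressed border muscle higher for 4 of 8, summing to 11477 to 18995 CPM in RZ and 30972 to 49469 CPM in BZ2. The part of these in the enzyme differences was not tested. The count of enzymes was 3 (Idh2, Idh3b and Idh3g) without 5 dpi-F and 1 (Idh2) without the section block, and TMM moved these differences by −0.15.

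Per 1000 cardiomyocyte UMIs the differences between near border and remote zone were smaller. Mdh2 held 15.2 and 15.1 (BZ2 and RZ) at 3 dpi, 15.6 and 15.2 in 5 dpi-F and 14.9 and 14.6 in 5 dpi-M. Idh2 held 10.5 and 14.7, 9.04 and 13.2, and 11.3 and 14.8. It was lower in BZ2 in 3 of 3 sections, at −0.47 (SE 0.29), and did not pass (edgeR adjusted p = 0.187, and 0.0403 without the 3 dpi section). The SE on this scale rests on a spread shared over genes and was alike for all members. A missed call therefore does not mean that the sections differed among themselves. None of the 9 was called by edgeR, 0 at an unadjusted p under 0.05, against 24.0% of genes higher and 0.0847% lower; the 8 other members lay between −0.10 (Idh3b) and 0.11 (Cs) with SE from 0.29 to 0.31. As a share of the 9 enzymes, Idh2 went from 20.6%, 19.0% and 19.6% in RZ through 18.1%, 17.0% and 18.5% in BZ1 to 15.7%, 13.4% and 15.6% in BZ2, a difference between BZ2 and RZ of −4.84 ± 0.83 points (SD, n = 3).

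The control was compared with the infarcted sections in muscle of like content. In rich spots alone, 9 of 9 enzymes were higher in CPM in the control than in all 3 infarcted sections (background 17.9%), but by 1.01-fold (Idh3g) to 1.34-fold (Idh2) over the nearest, and none reached 1.5-fold (background 1.3%). With TMM scaling over the 4 sections 1 member, Idh2, did. The count of 9 was 7 with CPM over all UMIs, without Idh3a and Idh3g, and 8 with all spots over tissue, without Idh3g. Per cardiomyocyte UMI the count was 5 of 9 (Cs, Idh2, Idh3b, Sucla2 and Fh1; background 8.75%), again with none at 1.5-fold (background 0.578%), of which Cs, at 5.88 against 5.86 in the nearest section, Idh3b (8.74 against 8.62) and Fh1 (4.91 against 4.87) were almost level with it. With all spots over tissue the count was again 5, with Mdh2 in place of Cs.

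Over whole sections and per cardiomyocyte UMI, Idh2 was the 1 member of 9 with the control above all 3 others (18.3 against 12.8, 15.1 and 15.2 per 1000 cardiomyocyte UMIs; background 1.96%). The control was below all 3 for 5 of 9 members (background 94.3%). Rich spots still differ in muscle share between sections, so values were also taken in bins of 2 percentage points of that share. Where it was 8 to 10%, Idh2 was at 19.1 per 1000 cardiomyocyte UMIs in the control, 13.0 at 3 dpi and 14.0 and 14.9 in the 5 dpi sections, and Idh3b at 9.69, 6.82, 5.45 and 8.56. Mdh2 lay between 14.8 and 16.5 in all 4 sections, and Cs between 5.55 and 6.51. In bins of 5 points the Idh2 values at 5 to 10% were 19.1, 11.6, 12.2 and 14.5, and at 10 to 15% 17.9, 15.4, 12.3 and 14.3. Each comparison puts 1 control heart against 3 infarcted ones, without a test.

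**Figure D5:**
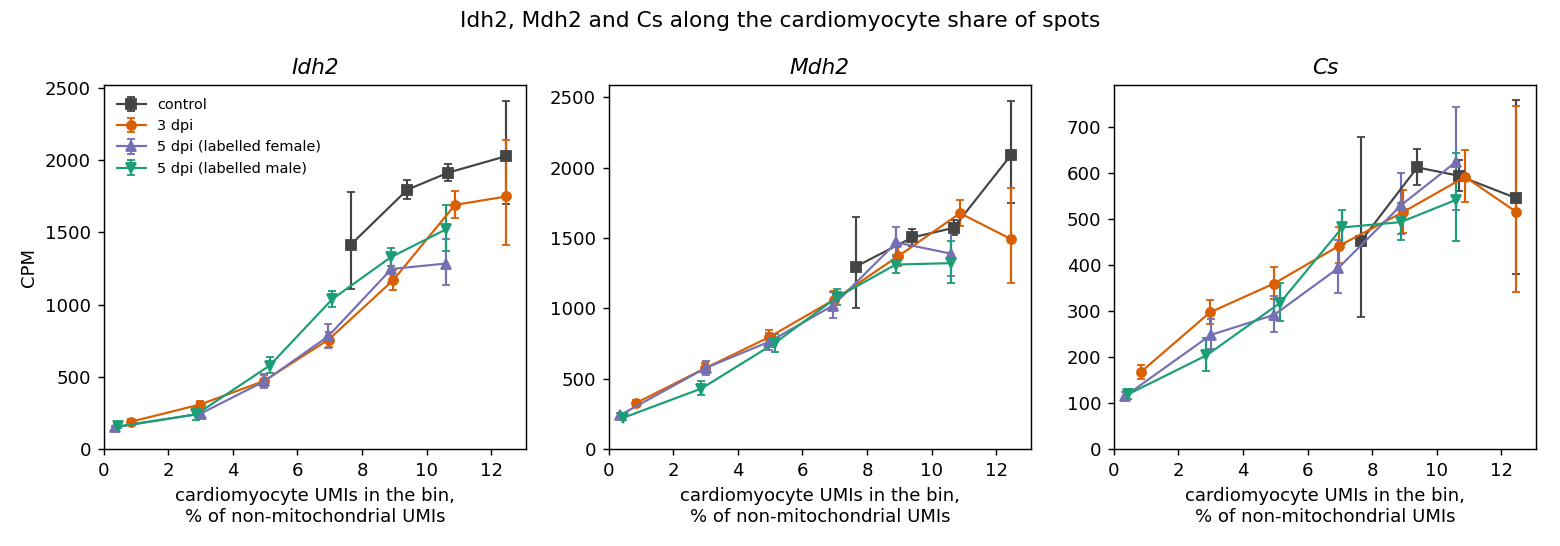
CPM of Idh2, Mdh2 and Cs in bins of 2 percentage points of the cardiomyocyte share, plotted at the share of the pooled bin, with exact Poisson 95% intervals that cover counting error only; bins of under 20 spots are left out. Mdh2 and Cs lie close together for the 4 sections at a given share, and Idh2 bends below a straight line at middle shares and lies higher in the control.

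The infarcted sections did not follow 1 order for all members. In rich spots the 3 dpi section was above both 5 dpi sections in CPM for 5 of 9 members (Cs, Idh2, Idh3g, Ogdh and Mdh2) and between them for the other 4. Idh3b was at 635 CPM at 3 dpi, 474 in 5 dpi-F and 741 in 5 dpi-M. Time was not tested, with 1 section at 3 dpi. Per 1000 cardiomyocyte UMIs in rich spots, 4 of 9 members were lowest at 3 dpi: Sucla2 (3.48 at 3 dpi, 3.85 and 4.27 at 5 dpi), Fh1 (4.14, 4.17 and 4.87), Ogdh (11.7, 13.1 and 12.3) and Cs (5.52, 5.86 and 5.82). For the first 3 the gap to the nearer 5 dpi section was smaller than that between the 5 dpi sections, and for Cs it was larger. In poor spots all 9 were lower per cardiomyocyte UMI at 3 dpi than in either 5 dpi section, for example Ogdh at 20.6 against 46.3 and 39.5, and those spots held 1.08% cardiomyocyte UMIs at 3 dpi against 0.36% and 0.50%.

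The rest of the pathway was taken from fixed lists. Of 9 other subunits of the cycle's enzymes, 9 fell in poor against rich spots (median log2 difference −2.56, against −2.83 for the members and 0.09 for all genes). Suclg2, the GDP-forming beta subunit of succinyl-CoA synthetase, fell by 2.01 on the log2 scale, and the succinate dehydrogenase subunits Sdha and Sdhb fell by 2.60 and 2.93. Near the border 9 of 9 fell as well, with a median of −0.76.

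Of 13 genes of pyruvate entry 12 were tested in the class fit, of which 11 fell in poor spots. Those include the pyruvate carrier subunits Mpc1 (−2.83) and Mpc2 (−3.07), the pyruvate dehydrogenase subunits Pdha1 (−2.59) and Pdhb (−3.00), and the inhibitory kinases Pdk2 (−3.49) and Pdk4 (−3.76, SE 0.27). Pdk3, another of these kinases, rose by 1.04 (SE 0.27, edgeR adjusted p = 0.00273), from 3.50 to 6.82 CPM in rich spots to 13.8 to 17.7 CPM in poor ones. Near the border 7 of 11 fell in CPM (background 4.8% lower), Pdk4 by 2.09 on the log2 scale. Per cardiomyocyte UMI Pdk4 was at −1.36 (SE 0.51, edgeR adjusted p = 0.0379). On that scale 1 of the 11 was called lower and 1 higher, against 0.0847% and 24.0% of all genes.

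The cytosolic counterparts and side branches were mixed: of 17 tested, 9 fell and 5 rose in poor spots, with a median of −1.10, and the share that rose is near the 30.8% of all genes. Mdh1, the cytosolic malate dehydrogenase, fell by 3.28 and Got2, the mitochondrial aspartate aminotransferase, by 2.93. Slc25a1, the mitochondrial citrate carrier, rose by 1.81 (SE 0.20, edgeR adjusted p = 1.67e-07), from 12.5, 11.4 and 8.31 CPM in rich spots to 41.7, 52.9 and 55.8 CPM in poor ones. Acly, which splits exported citrate, rose by 0.91 (SE 0.17) and Idh1, the cytosolic NADP-dependent isocitrate dehydrogenase, by 0.50 (SE 0.14, edgeR adjusted p = 0.00456). Glud1, glutamate dehydrogenase, rose by 0.31 and Me2, a mitochondrial malic enzyme, by 0.73. Idh1 thus rose where its mitochondrial counterpart Idh2 fell, each against the same rich spots. Acod1, which makes itaconate from the cycle intermediate aconitate, was too low to test, with 0 to 8 UMIs in any class of a section.

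Over the same contrast 22 of 22 respiratory chain genes fell with a median of −2.86 and 16 of 16 tested genes of fatty acid oxidation with a median of −2.95, while the median of the 12 cardiomyocyte genes was −5.00. In lower middle spots the medians were −1.50 for the members, −1.59 for the respiratory chain, −1.78 for fatty acid oxidation and −2.03 for the cardiomyocyte genes.

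The genes whose pattern was most like that of the enzymes were found by the correlation of log2(CPM + 1) with the summed enzymes over 14 class sums of the 4 sections, among 2717 genes. They were Ndufs6 (r = 0.999), Acsl1 (0.998), Uqcrh (0.998), Atp5a1 (0.998) and Atp5g1 (0.997): 4 subunits of the respiratory chain and ATP synthase and a fatty acyl-CoA synthetase. Of the members, Fh1 followed the sum of the other 8 most closely (r = 0.993), and Idh2 (0.977) and Ogdh (0.974) least. The 14 sums share hearts, libraries and the muscle gradient, so these values are descriptions.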

How the data were processed

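The deposited matrices hold UMI counts per gene and spot, made by the authors with Space Ranger 1.3.1 (build mm10 per the labels). They were used as deposited, with deposited spot positions. Kept were spots over tissue with at least 500 UMIs, 250 genes and at most 50% mitochondrial UMIs, after the study's methods. UMIs were summed per section, class or zone. The tests took class or zone sums of the 3 infarcted hearts and ran in edgeR 4.0.16 (quasi-likelihood, TMM, filterByExpr, section as a block, Benjamini-Hochberg over all genes, threshold 0.05). For values per cardiomyocyte UMI, the library size was the summed UMIs of the 12 cardiomyocyte genes, with no TMM. All class or zone sums of a section come from 1 heart. The control and 3 dpi had 1 section each and entered no test between groups. Simulated counts were run through the CPM fits alone, with changed genes drawn at random, so the rates are not those of the members. For 10521 genes, the poor against rich fit recovered 83.0% of genes changed by 1 on the log2 scale. It recovered 18.8% of those changed by 0.5, with 6.93% of its calls false. The zone fit, over 9444 genes, recovered 58.4% and 12.1%, with 1.39% false. DESeq2 1.42.0, RLE scaling, other filters, class limits and muscle scales, no section block and each section left out were alternatives. Intervals cover counting error only. Named were the 9 members, genes of the fixed lists and the 5 genes most like the members, ranked over 14 class sums because the control had too few spots in 2 classes. The members and lists were chosen with earlier results of these data known. Bins of 2 points, shares among the 9 enzymes and the straight line were added after seeing the data. Promoter windows are RefSeq's for GRCm38.p6; the promoter of Idh3a was not used here. The values of 1 other gene of these lists are not reported here.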

Additional observations from a re-analysis of the deposited data

Results flagged for a closer look

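In 5 dpi-M, 623 spots with deposited counts lay outside the tissue mask and entered no comparison. Per 1000 cardiomyocyte UMIs they exceeded the control's whole-section value for 8 of the 9 enzymes: Cs 10.3 against 5.91, Idh3a 7.38 against 5.00, Idh3b 11.2 against 8.74, Idh3g 8.54 against 4.81, Ogdh 16.1 against 13.0, Sucla2 6.16 against 4.69, Fh1 6.66 against 4.93 and Mdh2 26.5 against 15.3. These spots held 1.69% cardiomyocyte UMIs against 10.1% in the control, and 97.7% of 6924 genes exceeded the control on this scale, so the count says little of the enzymes. Idh2, at 15.7 against 18.3, was the exception, and in CPM all 9 were below the control there.

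Mdh2 per cardiomyocyte UMI in upper middle against rich spots was lower at 3 dpi (log2 ratio −0.016) and higher in both 5 dpi sections (0.028 and 0.040). Ogdh on the same scale in the near border against the remote zone was lower at 3 dpi (−0.073) and higher in both 5 dpi sections (0.20 and 0.17). Neither difference between time points was tested.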

How the results depend on the processing

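No paired analysis between groups was possible because the control, 3 dpi and 5 dpi sections came from different hearts. Classes and zones were compared within sections, with the section as a block. In poor and in lower middle against rich spots, the count of 9 lower members in CPM was the same under all 9 alternatives, but with quartile classes the log2 differences in lower middle spots were larger, from −1.82 (Cs) to −2.90 (Idh2). Members called in upper middle spots in CPM numbered 4 without the section block and 1 with quartile classes, and 6 to 9 with a section left out; near the border they numbered 1 without the block and 3 to 9 with a section left out. Per cardiomyocyte UMI, the 1 member called in lower middle spots became 0 with no filter, 0 without the block, 0 with quartiles and 3 (Cs, Idh3g and Ogdh, higher) with Pln, Mb, Ckm and Ryr2 as the scale, and 0 to 1 with a section left out, as near the border (0 to 1; 1 without the 3 dpi section). In poor spots it was 8 to 9.

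Over all genes, calls in upper middle spots in CPM went from 1029 to 142 without the block, 253 with quartiles and 356 to 740 with a section left out; per cardiomyocyte UMI from 3969 to 1192, 0 and 38 to 5443, and to 6090 with the 4-gene scale. Near the border they went from 851 to 56 without the block, 1422 with a low-spot limit of 0.35 and 158 to 705 with a section left out; per cardiomyocyte UMI from 2275 to 473, 4866 and 35 to 3417, and to 4620 with the 4-gene scale. The causes were not tested.

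Single members changed sign per cardiomyocyte UMI, all without a call there. With quartile classes these were Idh2 (0.28) and Idh3b (0.82) in lower middle and Idh3b (0.077), Idh3g (0.048) and Sucla2 (0.067) in upper middle spots. With the 4-gene scale they were Idh3b in lower middle (0.42), Idh3b (0.10), Idh3g (0.12) and Sucla2 (0.12) in upper middle spots, and near the border Idh3b (0.031), Idh3g (0.053), Sucla2 (0.075) and Idh3a (0.061). With sarcomere genes as the scale they were Sucla2 (−0.11) in lower middle, Mdh2 (−0.033) and Idh3a (−0.0056) in upper middle spots and Mdh2 (−0.011) near the border. With a low-spot limit of 0.35 they were Fh1 (−0.0047), Idh3g (0.060) and Sucla2 (0.018). With each section left out in turn, the values ran from −0.14 to 0.054 for Idh3b and −0.052 to 0.092 for Sucla2 in lower middle spots, −0.075 to 0.0089 for Sucla2 in upper middle spots, and near the border from −0.16 to 0.0099 for Idh3b, −0.10 to 0.0036 for Sucla2 and −0.12 to 0.015 for Idh3a. The turns came without 5 dpi-M (Idh3b, and Idh3a near the border), without 5 dpi-F (Sucla2 in upper middle spots and near the border) and without the 3 dpi section (Sucla2 in lower middle spots).

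There was 1 control, 1 section at 3 dpi and 2 at 5 dpi. With the section as a block, the p-values rest on how class or zone differences varied over 3 hearts. That spread was estimated with information shared over all genes. Per cardiomyocyte UMI the SE was nearly the same for all members, 0.29 to 0.32, so it is not each gene's own spread over hearts. In simulated CPM fits a log2 difference of 0.5 was mostly missed, and the fits per cardiomyocyte UMI were not simulated. A spot mixes cells, class limits come from genes that share the muscle's RNA with the enzymes, and the poor class is short of cardiomyocyte UMIs by definition.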
